A study of Homo sapiens with 12 samples.

Results

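The mitochondrial ribosomal protein genes of Huh7 cells, a human hepatocarcinoma line, are described here across 4 groups of samples. They were taken as the rows of the count table whose symbol is MRPL or MRPS with a number and which reached 10 counts in 3 or more samples. Of 86 rows with such a symbol, representing 76 symbols, 75 passed, each with its own symbol, out of 17092 genes tested in all. The 75 members were 46 MRPL genes, named for the large subunit, and 29 MRPS genes, named for the small subunit. The other 11 rows had at most 4 counts in any sample. Among them 8 were second entries of MRPL45, MRPS36 and MRPS18B with 0 counts throughout, 1 was a second entry of MRPS17 with 4 counts in total, and both entries of MRPL30 had 3 and 10 counts in total, so MRPL30 was the symbol left without a member.

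The study asked how graphene oxide (GO), a carbon sheet used as a drug carrier, acts on cells, and how this changes when GO is conjugated with the ginsenoside Rg3 (GO-Rg3) and then loaded with doxorubicin (GO-Rg3-DOX). Huh7 cells received medium only (untreated), GO (400 µg/mL), the conjugate GO-Rg3 (likewise 400 µg/mL) or the loaded GO-Rg3-DOX (100 µg/mL) for 6 h, with 3 samples in each group. Cells given free DOX were not analysed here. Since the dose of GO-Rg3-DOX differed from that of the other particles, its values are set beside theirs, no difference between them was tested, and the tests of GO-Rg3-DOX are against untreated cells, while GO-Rg3 and GO were compared at the same dose. Nothing in the sources used here states that the 3 samples of a group were separate cultures, so p-values measure the spread between these samples, which may be technical. GO-Rg3-DOX holds GO, Rg3 and DOX together, and which of them moved a gene there cannot be told apart.

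Mitochondrial ribosomes sit in the mitochondrial matrix and translate the few mRNAs of the mitochondrial genome, all of which encode parts of the respiratory chain. Their rRNAs are made in mitochondria, but every one of their proteins is encoded in the nucleus, translated in the cytosol and imported, so their assembly needs expression of both genomes. Many members descend from bacterial ribosomal proteins, and others were added in mitochondria. Doxorubicin binds DNA and poisons topoisomerase II, and it can also reach mitochondrial DNA.

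Depth was 27802871 to 38877420 counts per sample, and all 10 hepatocyte markers examined, such as ALB and AFP, were expressed, while of 4 markers of other cell types PTPRC, PECAM1 and KRT5 had at most 2 counts in any sample. The fourth, COL1A1, had 0 to 22 counts and was higher after GO-Rg3-DOX (log2 fold change 2.55 ± 0.63, adjusted p = 0.0022), and its part in the results was not tested. The share of counts from mitochondrially encoded genes was 5.31 to 6.28% in untreated cells and 6.89 to 7.42% after GO-Rg3. It reached 24.1, 12.1 and 14.8% after GO and 19.4, 13.9 and 12.8% after GO-Rg3-DOX. GO replicate 1 stood apart from the other GO samples in this share and in the members, and results that rest on it are given with and without it.

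The upstream sequences are shown first, since the members lie on many chromosomes and their promoters were examined for shared letters. RefSeq promoter windows on GRCh38.p14, from 250 bases before to 50 bases after the annotated start, were given for 66 of the 75 members and for 27305 genes in all. The ETS family motif CCGGAAG, the type of site bound by GABP, was present on either strand in 28 of the 66 members (42.4%) and in 12.2% of all genes of the table. AAGATGGCG, a YY1 type of site, was present in 13 of the 66 (19.7%) against 2.14% of all genes. The NRF1 type of site GCATGCGC was present in 6 members (9.09%) against 3.68%, the E-box CACGTG in 9 (13.6%) against 8.77%, the GC box GGGGCGG in 32 (48.5%) against 34.4% and CCAAT in 23 (34.8%) against 39.7%. The genes of the table were not filtered by expression, whereas every member had reached the count minimum. What this adds to the differences in motif shares given here and below was not tested. These motifs do not contain one another. Each match describes letters in a window and is not evidence of binding.

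The YY1 type of site was in 4 of the 25 members with a window that were lower after GO (16%) and in 9 of the 41 that did not pass (22%). After GO-Rg3-DOX it was in 7 of 27 lower (25.9%), 1 of 5 higher (20%) and 5 of 34 other members (14.7%). These shares are given without a test. In 10 of the 13 members with the YY1 type of site it lay after the annotated start on the gene's own strand. Such sites are printed for 6 of them, among them MRPL50 and MRPL42, which were among the 5 lowest after GO, and MRPL46, MRPS30 and MRPL38, which are described with GO-Rg3-DOX. They are 20 bases long, read 5′ to 3′ on the gene's strand, and the motif is in capitals.
MRPL50: tcatcgAAGATGGCGgcgcg
MRPL42: tgaaacAAGATGGCGggttc
MRPL46: gaacgaAAGATGGCGgcgcc
MRPL38: ggagggAAGATGGCGgcgcc
MRPS30: cgggcaAAGATGGCGgcggc
MRPS18A: tttttgAAGATGGCGgccct
They lie at chr9:101398582-101398601, chr12:93467516-93467535, chr15:88467367-88467386, chr17:75904865-75904884, chr5:44808954-44808973 and chr6:43687769-43687788 of GRCh38.p14.

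A longer element was searched after the printed sequences had been read. ACTACA followed after any 2 bases by TCCCA, a core of the element recognised by ZNF143, was found on either strand in 7 of the 66 members (10.6%) and in 1.65% of all genes of the table. The 7 were MRPL19, MRPL24, MRPL34, MRPL42, MRPL50, MRPS22 and MRPS26. It occurred in 5 of the 25 members with a window that were lower after GO and in 2 of the 41 that did not pass that test. These counts are a description only, since the element was picked from sequences of members that were lowest after GO. This partly fixes the split, and also the share of members against that of all genes. The 120 bases before the start are printed for the 3 of them that were among the 5 lowest members after GO, with the motif in capitals.
MRPL34: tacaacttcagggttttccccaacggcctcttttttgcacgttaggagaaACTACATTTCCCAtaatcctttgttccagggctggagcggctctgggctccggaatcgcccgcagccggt
MRPL50: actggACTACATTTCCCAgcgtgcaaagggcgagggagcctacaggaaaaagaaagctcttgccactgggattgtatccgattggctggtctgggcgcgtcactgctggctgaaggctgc
MRPL42: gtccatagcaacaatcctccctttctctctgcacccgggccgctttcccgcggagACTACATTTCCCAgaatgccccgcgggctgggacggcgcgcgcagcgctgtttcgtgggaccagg
They lie at chr19:17305752-17305871, plus strand, the last of 4 MRPL34 windows, at chr9:101398619-101398738, minus strand, and at chr12:93467394-93467513, plus strand, of GRCh38.p14. The motif begins 70, 115 and 65 bases before the start in these sequences. The ETS motif was in 8 of the 25 members lower after GO (32%) and in 20 of the 41 others (48.8%), shares given without a test.

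Levels of the members in untreated cells spanned a wide range. Mean counts per 1000000 counts (CPM, scaled by edgeR's TMM factors) ran from 0.343 to 269, with a median of 42.4. Divided by transcript length, which was known for 73 members, the median was 27.7 CPM per kb, and it was 32.1 for MRPL and 22.9 for MRPS genes. The highest levels per kb were those of MRPL11 (167), a protein of the stalk base, MRPL51 (158) and MRPL21 (124). MRPS24 (0.515), MRPL12 (1.06), a stalk protein, and MRPL53 (3.39) were the lowest. Each of these 3 shares exons on the same strand with another gene, URGCP-MRPS24, SLC25A10 and CCDC142, respectively. Over all 13 members with such an overlap the median was 5.40 CPM per kb, against 29.98 for the other members. Counting programs often leave out reads shared by overlapping genes, and the options used here are not given in the sources, so the levels of these 13 genes, MRPL9, MRPL12, MRPL19, MRPL20, MRPL28, MRPL33, MRPL38, MRPL42, MRPL46, MRPL53, MRPS6, MRPS17 and MRPS24, are uncertain. In all, 37 members shared exon bases with another gene on either strand, and their values are less certain than those of the 36 without such an overlap. MRPL45 and MRPS21 had no coordinates in the annotation used, so overlap was not assessed for them.

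After GO, the members that changed were all lower. In edgeR's quasi-likelihood test, with p-values adjusted over all genes by the Benjamini-Hochberg procedure, 30 of 75 passed an adjusted p of 0.01 with lower levels and 0 with higher levels, where 15.4% of all genes tested were lower and 12.1% higher. At an unadjusted p below 0.05, 45 members were lower and 1 higher, against 26.5 and 24.2% of all genes. DESeq2 called 35 members lower and 0 higher, against 17 and 15% of the genes to which it gave an adjusted p. A fall beyond 2-fold was called for 6 members, MRPL34, MRPL50, MRPL32, MRPL42, MRPL13 and MRPS28, against 2.62% of all genes. The median log2 fold change was -0.41 over the members and 0.01 over all genes. All 3 GO samples lay below all 3 untreated samples for 45 members and above them for 1, MRPL38, against 29.9 and 28.6% of all genes. Without GO replicate 1, 50 members were lower, against 15.7% of all genes. In GO replicate 1 the median member was 0.16 log2 units below the untreated mean, against 0.58 and 0.57 in the other GO samples.

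**Figure D1:**
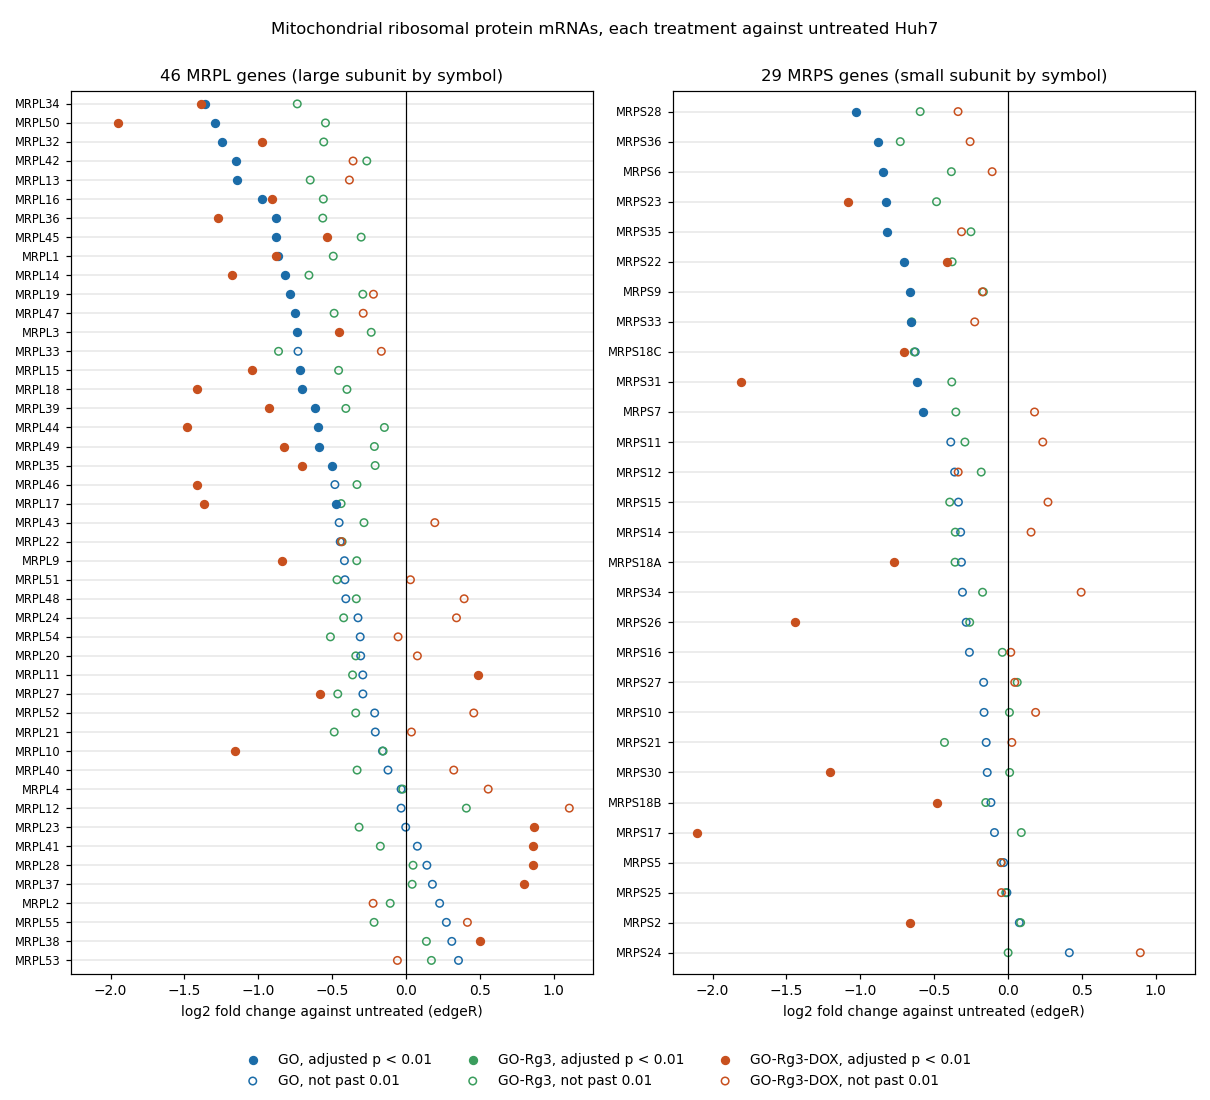
Log2 fold change of each member (horizontal axis, edgeR) for each of the treatments against untreated cells, with MRPL genes on the left and MRPS genes on the right in order of the GO value. Filled points passed an adjusted p of 0.01: 30 for GO, all below 0, none for GO-Rg3, and 36 for GO-Rg3-DOX, 30 below and 6 above 0.

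The lowest member was MRPL34, the homologue of a small bacterial large subunit protein. It was at 25.5, 20.5 and 23.3 CPM in untreated cells, 10.6, 8.16 and 8.35 with GO, 14.6, 12.9 and 14.1 with GO-Rg3 and 9.43, 9.02 and 8.05 with GO-Rg3-DOX. Every GO sample was at less than 50% of the mean untreated level (log2 fold change -1.36 ± 0.13, adjusted p = 3.2e-06). MRPL50, a mitochondria-specific protein of the large subunit, was at 50.1, 48.3 and 48.3 CPM in untreated cells, 22.4, 19.3 and 18.1 with GO, 26.4, 39.8 and 34.5 with GO-Rg3 and 11.04, 13.2 and 13.8 with GO-Rg3-DOX. The GO samples were again separate from all untreated samples (log2 fold change -1.30 ± 0.14, adjusted p = 1.1e-05). MRPL32, a large subunit protein that is trimmed by the m-AAA protease before it enters the ribosome, was at 50, 49.9 and 48 CPM in untreated cells, 23.5, 18.99 and 19.98 with GO, 27.4, 36.3 and 36.95 with GO-Rg3 and 20.4, 27.5 and 27.2 with GO-Rg3-DOX. Its untreated samples differed by little from each other, and the GO samples lay far below them (log2 fold change -1.25 ± 0.14, adjusted p = 1.4e-05).

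MRPL42, a further mitochondria-specific large subunit protein, was at 69.6, 72.3 and 67.9 CPM in untreated cells, 26.7, 35.1 and 32.6 with GO, 48.4, 67.95 and 58.2 with GO-Rg3 and 44.3, 57.9 and 61.4 with GO-Rg3-DOX. The GO samples lay below all untreated and all GO-Rg3 samples (log2 fold change -1.15 ± 0.14, adjusted p = 3.5e-05). MRPL13, the homologue of bacterial L13, was at 79.5, 81.9 and 80.2 CPM in untreated cells, 39.7, 36.1 and 33.6 with GO, 38.6, 59.6 and 56 with GO-Rg3 and 47.96, 67.2 and 70.1 with GO-Rg3-DOX. GO replicates 1 to 3 were all lower than every untreated sample (log2 fold change -1.14 ± 0.16, adjusted p = 7.5e-05). MRPS28 was the small subunit gene with the largest fall and was at 20, 22.1 and 20.9 CPM in untreated cells, 11.4, 10.3 and 9.17 with GO, 13.5, 14.3 and 13.8 with GO-Rg3 and 14.96, 16.5 and 18.3 with GO-Rg3-DOX. Its groups did not overlap between GO and untreated cells (log2 fold change -1.03 ± 0.11, adjusted p = 1.1e-05). MRPL34, MRPL50, MRPL32, MRPL42 and MRPL13 stayed past the threshold in each of the 6 fits that left out 1 of the 6 samples compared.

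**Figure D2:**
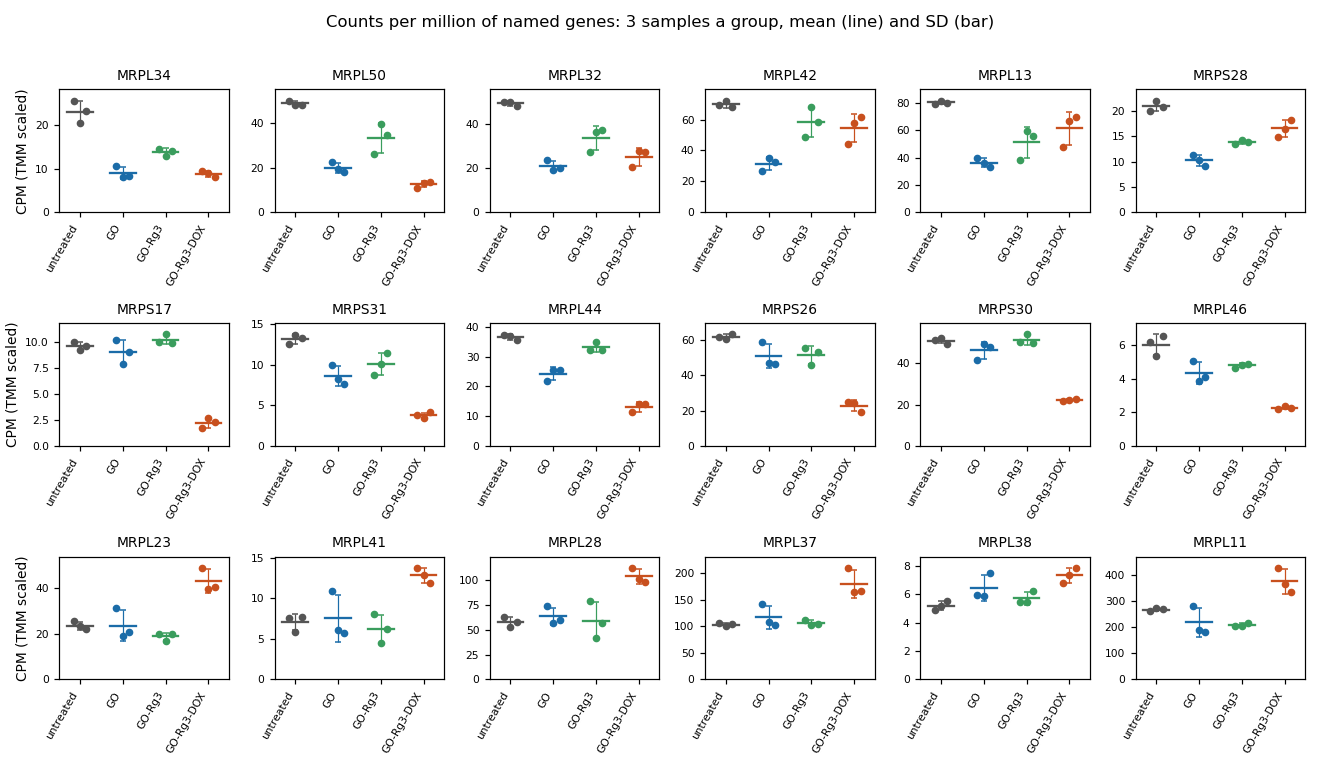
CPM of 18 named members (vertical axes, starting at 0) in the 3 samples of each group, with the mean as a line and the SD as a bar. The upper row holds the 6 members more than 2-fold lower after GO, the middle row members lowest or far lower after GO-Rg3-DOX, and the lower row the 6 members higher after GO-Rg3-DOX.

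By place in the ribosome, 0 of 3 stalk genes and 2 of 5 tunnel exit genes were lower after GO, beside 30 of all 75 members and 15.4% of all genes, with no test of a difference. Of the stalk genes, MRPL10 had a log2 fold change of -0.16 ± 0.10, MRPL11 of -0.29 ± 0.14 and MRPL12 of -0.03 ± 0.43. The sign for MRPL12 turned under some settings. At the tunnel exit, where the nascent chain leaves the large subunit, the lower genes were MRPL45, which anchors the ribosome to the inner membrane (log2 fold change -0.88 ± 0.10, adjusted p = 2.2e-05), and MRPL17 (log2 fold change -0.47 ± 0.13, adjusted p = 0.0091). MRPL17 had an adjusted p of 0.012 with an offset for GC content and passed in only 1 of the 6 fits that left out a sample. Over these fits its log2 fold change ran from -0.67 to -0.34 and its adjusted p from 7.7e-05 to 0.051. Its GO samples were at 49.4, 35.8 and 32.1 CPM, with replicate 1 the highest. MRPL22, MRPL23 and MRPL24 did not pass, with log2 fold changes of -0.44 ± 0.16, -0.00 ± 0.16 and -0.32 ± 0.12, and the value of MRPL23, close to 0, also turned sign. MRPS12, a protein of the decoding centre, had -0.36 ± 0.17 and did not pass (adjusted p = 0.1). MRPL11, MRPL22, MRPL24 and MRPS12 each passed in 1 of the 6 fits that left out a sample. Their lowest values over these fits were -0.52, -0.66, -0.51 and -0.61, and GO replicate 1 was the highest GO sample of each. With the GC content offset MRPL10 (-0.31, adjusted p = 0.0033), MRPL24 (-0.50, adjusted p = 7.2e-04) and MRPS12 (-0.67, adjusted p = 1.9e-04) passed, while MRPL11, MRPL12, MRPL22 and MRPL23 did not.

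Mammals have 3 paralogues of bacterial S18, of which the product of MRPS18A belongs to the large subunit and those of MRPS18B and MRPS18C to the small subunit. None passed after GO in the main fit: the log2 fold changes were -0.32 ± 0.12 for MRPS18A, -0.12 ± 0.12 for MRPS18B and -0.63 ± 0.19 for MRPS18C. With the GC content offset MRPS18A passed (-0.55, adjusted p = 5.7e-05), and MRPS18B (-0.21) and MRPS18C (-0.26) did not. MRPS18C passed in 1 of the 6 fits that left out a sample, where its lowest value was -0.88, and GO replicate 1 was its highest GO sample. MRPS30, which in spite of its name is part of the large subunit, had -0.14 ± 0.09. MRPS36, now known as a subunit of the 2-oxoglutarate dehydrogenase complex rather than of the ribosome, was lower (log2 fold change -0.88 ± 0.16, adjusted p = 5.6e-04), a call that was lost with the GC content offset (log2 fold change -0.46, adjusted p = 0.073). Members with bacterial homologues and mitochondria-specific members gave like shares, with 18 of 45 and 11 of 29 lower, against 15.4% of all genes, and medians of -0.39 and -0.41.

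Genes of both subunits fell after GO, and their shares are given without a test of the difference. Of the MRPL genes, 20 of 46 (43.5%) were lower after GO, with a median log2 fold change of -0.45, where 15.4% of all genes were lower and 12.1% higher. Of the MRPS genes, 10 of 29 (34.5%) were lower, with a median of -0.32. Grouped by structure instead, 20 of 48 large and 9 of 26 small subunit genes were lower. The sum of CPM over the MRPL genes was 2278 to 2328 in untreated samples and 2059, 1541 and 1498 after GO. Over the MRPS genes it was 1435 to 1443 and then 1263, 1076 and 1061. The ratio of these sums was 1.58 to 1.62 in untreated cells, 1.63 in GO replicate 1 and 1.43 and 1.41 in the other GO samples, so that GO replicate 1 lay above the untreated samples and the other samples below them.

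**Figure D3:**
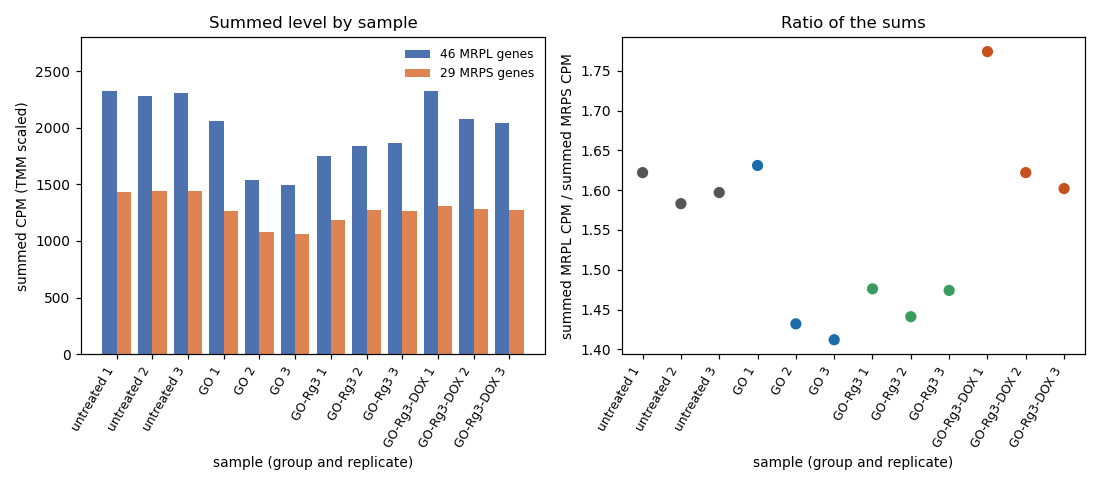
Left, summed CPM of the MRPL and MRPS genes in each sample as bars from 0. Right, the ratio of both sums, which was 1.58 to 1.62 in untreated cells, 1.44 to 1.48 after GO-Rg3, and higher in replicate 1 than in replicates 2 and 3 of GO and of GO-Rg3-DOX.

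The fall after GO went with the base composition of the transcripts. Over 73 members with a known transcript, the Spearman correlation of the log2 fold change with GC content was 0.644, and over all 16622 genes with a value it was 0.438. These points share libraries, and no test was made on them. Over all genes tested, 15.4% were lower after GO, a share that was not split by GC content. Of the 25 members with the lowest GC content (34.8 to 44.6%), 19 were lower after GO, with a median of -0.73. In the middle group of 23 members (45.6 to 52.3%) 7 were lower, with a median of -0.39. Of the 25 with the highest GC content (52.99 to 66.7%) 3 were lower, with a median of -0.16. MRPL50 (35.01%), MRPL42 (38.3%) and MRPL13 (39.6%) are in the first of these groups, while MRPL34 (54.5%) was the lowest member in spite of its high GC content. With an offset for GC content in the fit, 36 members were lower and 0 higher after GO, against 16.8 and 13.4% of all genes. The median of the MRPL genes minus that of the MRPS genes was then -0.023 in place of -0.13. The part of GC content in the result was not tested beyond this offset.

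**Figure D4:**
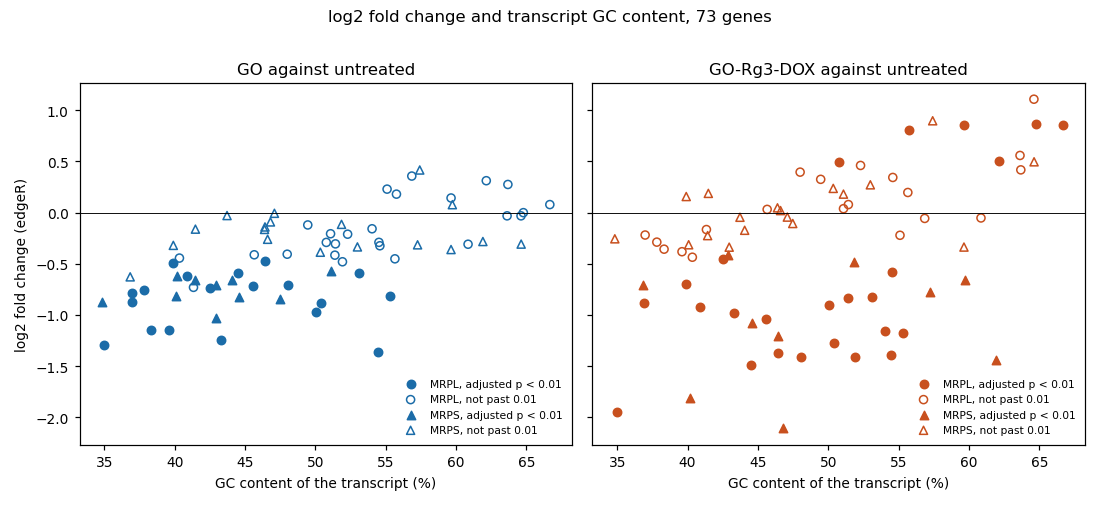
Log2 fold change of 73 members after GO (left) and after GO-Rg3-DOX (right) against the GC content of the transcript in percent, with circles for MRPL and triangles for MRPS genes, filled where the adjusted p was below 0.01. After GO the filled points are mostly at low GC content, with 19 of the 25 lowest in GC and 3 of the 25 highest, beside 15.4% of all genes of any GC content.

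GO-Rg3 was next compared with untreated cells. No member passed an adjusted p of 0.01 by edgeR's quasi-likelihood test in either direction, where 0.105% of all genes were lower and 0.0585% higher. At an unadjusted p below 0.05, 46 members were lower and 0 higher, against 9.5 and 3.9% of all genes. DESeq2 called 11 lower and 0 higher, against 2.03 and 0.563% of the genes with an adjusted p. The median log2 fold change was -0.33 over the members and -0.0011 over all genes, and 64 of the 75 values were below 0. All 3 GO-Rg3 samples lay below all 3 untreated samples for 53 members and above them for 0, against 16.6 and 9.12% of all genes. The summed CPM of all members was 3718 to 3763 in untreated cells, 2930 to 3127 after GO-Rg3, and 3322, 2617 and 2560 after GO. In each GO-Rg3 sample 60 or more of the 75 members were below their untreated mean.

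The lowest values after GO-Rg3 belonged to MRPL33, a short protein of the large subunit, and MRPL34, named after their values were seen. MRPL33 was at 28.9, 28 and 29.6 CPM in untreated cells, 25.3, 13.7 and 13.5 with GO, 12.6, 19.3 and 15.8 with GO-Rg3 and 33.04, 22.97 and 21.1 with GO-Rg3-DOX. Both particles at 400 µg/mL left it below every untreated sample, without passing the test (log2 fold change -0.86 ± 0.23, adjusted p = 0.074 for GO-Rg3 and log2 fold change -0.73 ± 0.23, adjusted p = 0.017 for GO). For MRPL34 the test against untreated cells gave a log2 fold change -0.74 ± 0.12, adjusted p = 0.014 for GO-Rg3. The medians were -0.34 for MRPL and -0.26 for MRPS genes, and the ratio of summed MRPL to MRPS CPM was 1.44 to 1.48, below all untreated samples.

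**Figure D5:**
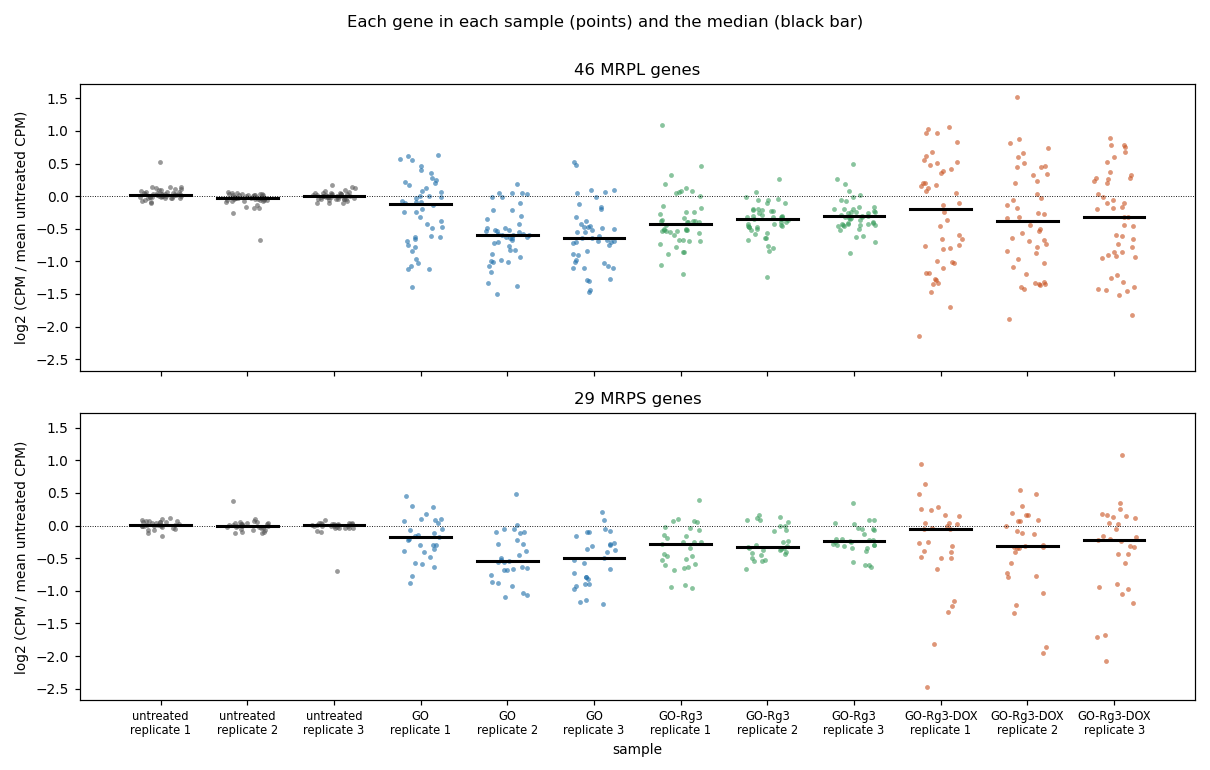
Each point is 1 member in 1 sample, as log2 of its CPM over its mean in untreated cells, and the black bar is the median of 46 MRPL (upper) or 29 MRPS genes (lower). The medians of all treated samples lie below 0, and that of GO replicate 1 lies closer to 0 than those of the other GO samples.

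GO-Rg3 and GO, at the same dose, were compared directly. In the same edgeR test, 11 of 75 members were higher after GO-Rg3 than after GO and 0 were lower, where 7.33% of all genes were higher and 6.25% lower. At an unadjusted p below 0.05, 25 were higher and 1 lower, against 20.3 and 19.4% of all genes. DESeq2 called 17 higher and 0 lower, against 12.4 and 8.56% of the genes with an adjusted p. The 11 were 9 MRPL and 2 MRPS genes. All 3 GO-Rg3 samples lay above all 3 GO samples for 21 members and below them for 0, against 20.1 and 18.9% of all genes. The median log2 difference was 0.14 over the members and -0.02 over all genes.

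The largest difference between the particles was that of MRPL42, whose GO samples (26.7, 35.1 and 32.6 CPM) were all below the GO-Rg3 samples (48.4, 67.95 and 58.2 CPM; log2 fold change 0.89 ± 0.14, adjusted p = 6.2e-04). For MRPL50 the difference was smaller (log2 fold change 0.75 ± 0.14, adjusted p = 0.0015), and the lowest GO-Rg3 sample was 26.4 CPM against a highest GO sample of 22.4 CPM. MRPL32 (log2 fold change 0.69 ± 0.14, adjusted p = 0.0025), MRPL34 (log2 fold change 0.62 ± 0.13, adjusted p = 0.0029) and MRPL45 (log2 fold change 0.58 ± 0.10, adjusted p = 0.0012) followed. Of these, MRPL32 and MRPL34 passed in 3 of the 6 fits that left out a sample, and MRPL42, MRPL50 and MRPL45 in all 6. In a fit of only the 6 samples compared, MRPL42 alone of these passed, while the other 4 kept their size with adjusted p of 0.020 to 0.026. With the GC content offset MRPL50 was at 0.40 (adjusted p = 0.026). For members that did not pass, the interval limits the difference: that of MRPS30, for example, had a 95% interval of -0.04 to 0.35, and that of MRPL11 one of -0.37 to 0.23.

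The count of 11 depended on single samples. It was 5 and 3 without GO replicates 2 and 3, 6 and 3 without GO-Rg3 replicates 2 and 3, and 16 without GO replicate 1. Over all genes, the share higher was 7.29 and 3.56%, 4 and 2.93%, and 6.08% in these fits, in the same order. With all samples it was 7.33%, above each of these. In a fit of only these 6 samples the count was 1, against 0.954% of all genes. The members with low GC content made up most of it, with 8 of the 25 lowest in GC, 0 of the middle 23 and 2 of the 25 highest, and the remaining member, MRPL45, had no GC value.

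GO-Rg3-DOX at 100 µg/mL moved members in both directions. By the same edgeR test, 30 of 75 were lower and 6 higher than in untreated cells, where 30.5% of all genes were lower and 25.5% higher. The share of members that were lower (40%) was thus above that of all genes and the share that were higher (8%) below it, without a test of either difference. At an unadjusted p below 0.05, 35 were lower and 15 higher, against 37.1 and 32.3% of all genes. DESeq2 called 29 lower and 13 higher, against 29.1 and 28.7% of the genes with an adjusted p. A fall beyond 2-fold was called for 15 members (20%), against 18.2% of all genes. All 3 samples lay below the untreated samples for 38 members and above them for 21, against 40.3 and 35% of all genes. The median log2 fold change was -0.26 over the members and -0.06 over all genes. With an offset for GC content, 27 members were lower and 11 higher, against 27.9 and 31.1% of all genes. The medians were then 0.02 over the members and 0.08 over all genes. Without GO-Rg3-DOX replicate 2 the median of the members minus that of all genes was -0.12 in place of -0.20.

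The lowest was MRPS17, the homologue of bacterial S17. It was at 10.03, 9.27 and 9.63 CPM in untreated cells, 10.3, 7.89 and 9.08 with GO, 10.1, 10.8 and 9.96 with GO-Rg3 and 1.73, 2.66 and 2.29 with GO-Rg3-DOX. The GO-Rg3-DOX samples lay far below the untreated samples (log2 fold change -2.11 ± 0.15, adjusted p = 1.8e-08), while neither GO (-0.09 ± 0.13) nor GO-Rg3 (0.09 ± 0.13) passed the test. The gene shares exons on the same strand with another gene, GBAS, and with the second MRPS17 entry. MRPL50 followed (log2 fold change -1.95 ± 0.15, adjusted p = 2.1e-08), with the values given above, and was at -1.25 with the GC content offset, still past the threshold. MRPS31, a mitochondria-specific protein of the small subunit, was at 12.6, 13.7 and 13.4 CPM in untreated cells, 9.99, 8.27 and 7.61 with GO, 8.73, 10.2 and 11.5 with GO-Rg3 and 3.75, 3.41 and 4.12 with GO-Rg3-DOX. Its GO-Rg3-DOX samples were below all untreated samples (log2 fold change -1.81 ± 0.14, adjusted p = 4.2e-08).

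MRPL44, a large subunit protein with a fold like that of RNase III, was at 37.4, 36.9 and 35.7 CPM in untreated cells, 21.7, 25.5 and 25.6 with GO, 32.2, 35.1 and 32.1 with GO-Rg3 and 11.3, 13.98 and 13.99 with GO-Rg3-DOX. Again the GO-Rg3-DOX samples did not overlap the untreated samples (log2 fold change -1.48 ± 0.11, adjusted p = 2.1e-08). MRPS26, a mitochondria-specific small subunit protein, was at 61.8, 60.3 and 63.2 CPM in untreated cells, 58.7, 47.2 and 46.5 with GO, 55.6, 45.9 and 53.2 with GO-Rg3 and 24.8, 24.4 and 18.99 with GO-Rg3-DOX. It fell after GO-Rg3-DOX (log2 fold change -1.44 ± 0.13, adjusted p = 1.1e-07), and GO did not move it past the threshold (log2 fold change -0.28 ± 0.12, adjusted p = 0.074). These 5 genes passed in each of the 6 fits that left out a sample.

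The 6 members that were higher after GO-Rg3-DOX were all MRPL genes. MRPL23, a tunnel exit protein, was at 25.4, 23.2 and 21.97 CPM in untreated cells, 31.2, 18.99 and 20.5 with GO, 19.8, 17 and 19.8 with GO-Rg3 and 48.9, 39.4 and 40.6 with GO-Rg3-DOX. All GO-Rg3-DOX samples lay above all untreated samples (log2 fold change 0.87 ± 0.16, adjusted p = 1.9e-04). MRPL41, a mitochondria-specific protein, was at 7.51, 5.88 and 7.75 CPM in untreated cells, 10.9, 6.07 and 5.66 with GO, 8.03, 4.53 and 6.18 with GO-Rg3 and 13.7, 12.9 and 11.9 with GO-Rg3-DOX. The GO-Rg3-DOX samples again lay above the untreated ones (log2 fold change 0.86 ± 0.23, adjusted p = 0.0039). MRPL37, likewise mitochondria-specific, was at 105.6, 100.3 and 104.5 CPM in untreated cells, 141.8, 107.3 and 102.5 with GO, 112.7, 102.4 and 104.4 with GO-Rg3 and 210.4, 164.4 and 165.9 with GO-Rg3-DOX. The rise was largest in GO-Rg3-DOX replicate 1 and present in all 3 samples (log2 fold change 0.80 ± 0.13, adjusted p = 4.7e-05).

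MRPL28, MRPL38 and MRPL11 were the other members that rose (log2 fold change 0.86 ± 0.17, adjusted p = 4.7e-04; log2 fold change 0.50 ± 0.13, adjusted p = 0.0037; log2 fold change 0.49 ± 0.14, adjusted p = 0.0066). MRPL38 had few counts, 152 to 264 per sample, and it and MRPL28 share exons with another gene on the same strand. The size of the rises depended on the setting. All 6 were larger by DESeq2 (0.56 to 0.94) and in a fit of only the 6 samples compared (0.53 to 0.91). With the GC content offset, MRPL23 was at 0.27 (adjusted p = 0.087), MRPL41 at 0.17 (adjusted p = 0.30) and MRPL38 at 0.02 (adjusted p = 0.92), none past the threshold. MRPL28 at 0.49, MRPL37 at 0.61 (adjusted p = 4.2e-05) and MRPL11 at 0.53 (adjusted p = 0.0011) were still past it. By library totals alone, MRPL28 (0.44), MRPL41 (0.44), MRPL38 (0.09) and MRPL11 (0.06) did not pass, while MRPL23 (0.44) and MRPL37 (0.37) did. MRPL41 stayed past the threshold in 3 of the 6 fits that left out a sample, MRPL38 in 2 and MRPL11 in 1. The count of 6 was 3 without GO-Rg3-DOX replicate 2 or untreated replicate 2, and 4 without GO-Rg3-DOX replicate 1. The share of all genes that were higher was 22.4, 21.6 and 22.7% in these fits. By library totals alone, which moved the median of all genes to -0.47, 46 members were lower and 2 higher. Of all genes, 42.7% were lower and 12.6% higher, so the split between rises and falls depended on the scaling, also over all genes.

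Within parts of the ribosome the responses to GO-Rg3-DOX diverged. Of the stalk proteins, MRPL10 was lower (log2 fold change -1.15 ± 0.10, adjusted p = 1.5e-07) and MRPL11 higher, and MRPL12, with 14 to 85 counts per sample, did not pass (log2 fold change 1.11 ± 0.40, adjusted p = 0.023). At the tunnel exit MRPL17 (log2 fold change -1.37 ± 0.13, adjusted p = 3.5e-07) and MRPL45 (log2 fold change -0.54 ± 0.10, adjusted p = 2.9e-04) were lower and MRPL23 higher. MRPL22 and MRPL24 did not pass, with -0.44 ± 0.16 and 0.34 ± 0.12, and each changed sign under 1 kind of scaling or offset. MRPS12 had -0.34 ± 0.17 (adjusted p = 0.097) and passed in 0 of the 6 fits that left out a sample. It passed with the GC content offset (-0.71, adjusted p = 3.7e-05), by library totals alone (-0.76, adjusted p = 4.6e-04) and with only the 6 samples compared (-0.30, adjusted p = 0.0056). All 3 paralogues of S18 were lower, MRPS18A by -0.77 ± 0.12, MRPS18B by -0.48 ± 0.12 and MRPS18C by -0.71 ± 0.19 on the log2 scale. MRPS18A passed in all 6 fits that left out a sample, and MRPS18B and MRPS18C in 2 each. With the GC content offset MRPS18C was at -0.07 (adjusted p = 0.80). MRPS30 was at 51.5, 52.1 and 49.6 CPM in untreated cells, 41.6, 49.5 and 47.9 with GO, 50.5, 54.2 and 49.8 with GO-Rg3 and 21.8, 22.1 and 22.5 with GO-Rg3-DOX. GO-Rg3-DOX put it at less than 50% of its untreated level (log2 fold change -1.21 ± 0.09, adjusted p = 3.1e-08) and it did not pass after GO or GO-Rg3. MRPS36 did not pass (log2 fold change -0.26 ± 0.16, adjusted p = 0.16).

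A pair of neighbouring members, chosen after their values were seen, differed in response. MRPL46 (chr15:89002708-89010621, minus strand on GRCh37) and MRPS11 (chr15:89010684-89024007, plus strand) lie head to head, with gene models that begin 62 bases apart. MRPL46, a mitochondria-specific large subunit protein, was at 6.19, 5.34 and 6.57 CPM in untreated cells, 5.09, 3.88 and 4.10 with GO, 4.68, 4.82 and 4.92 with GO-Rg3 and 2.18, 2.37 and 2.25 with GO-Rg3-DOX. It fell after GO-Rg3-DOX in every sample (log2 fold change -1.41 ± 0.15, adjusted p = 6.9e-07). MRPS11, a small subunit protein near the mRNA path, was at 33.7, 29.6 and 32.5 CPM in untreated cells, 28.6, 22.1 and 22.7 with GO, 26.7, 24.8 and 26.8 with GO-Rg3 and 38.2, 39.5 and 35.2 with GO-Rg3-DOX. It did not pass the test, and its 3 GO-Rg3-DOX samples lay above all untreated samples (log2 fold change 0.24 ± 0.11, adjusted p = 0.073). The 120 bases before the RefSeq start of each are shown because the bases between the starts lie upstream of both genes. The RefSeq starts are 319 bases apart on GRCh38.p14. Neither held the ETS, YY1, NRF1 or ZNF143 type of motif before the start, and the YY1 type of site of MRPL46 printed above lies after its start.
MRPL46: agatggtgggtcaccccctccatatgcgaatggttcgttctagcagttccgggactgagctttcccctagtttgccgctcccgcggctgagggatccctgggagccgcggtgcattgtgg
MRPS11: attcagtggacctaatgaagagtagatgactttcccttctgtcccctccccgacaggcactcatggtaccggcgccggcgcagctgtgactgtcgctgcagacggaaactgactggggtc
They lie at chr15:88467389-88467508, minus strand, and at chr15:88467588-88467707, plus strand, of GRCh38.p14.

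By subunit, 20 of 46 MRPL genes (43.5%) were lower and 6 (13%) higher after GO-Rg3-DOX, and 10 of 29 MRPS genes (34.5%) were lower and 0 higher. Of all genes, 30.5% were lower and 25.5% higher, so the MRPS share of falls was near that of all genes. The medians were -0.32 and -0.23. Grouped by structure, which moves the lower genes MRPS18A and MRPS30 to the large subunit, they were -0.37 for 48 and -0.14 for 26 genes. The summed CPM of all members was 3631, 3353 and 3319, below every untreated sample, and the ratio of MRPL to MRPS sums was 1.77, 1.62 and 1.60. The Spearman correlation of log2 fold change with GC content was 0.397 over the 73 members and 0.370 over all genes. Of the 25 members with the highest GC content, 8 were lower and 5 higher, and of the 25 with the lowest, 11 were lower and 0 higher. Of 36 members with coordinates and no overlapping gene 18 were lower and 1 higher, and of 37 with an overlap 11 were lower and 5 higher. The falls in 8 of 25 and in 11 of 37 members were near the share of all genes, which was not split by GC content or overlap.

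Genes that work with the mitochondrial ribosome were counted in the same fit. Of all genes, 15.4% were lower and 12.1% higher after GO, and 30.5% were lower and 25.5% higher after GO-Rg3-DOX. No difference between a list and these shares was tested. The 7 ribosomal proteins without an MRPL or MRPS symbol in this annotation had 5 (71.4%) lower and 0 higher after GO. After GO-Rg3-DOX 2 of them were lower and 2 higher, 28.6% each and near the shares of all genes. DAP3, a GTP-binding protein of the small subunit, had a mean of 212 CPM in untreated cells and 162 after GO (log2 fold change -0.39 ± 0.09). ICT1, a peptidyl-tRNA hydrolase built into the large subunit, was lower after GO (-0.85 ± 0.16) and after GO-Rg3-DOX (-1.31 ± 0.16). AURKAIP1, a small subunit protein, rose after GO-Rg3-DOX (0.94 ± 0.23).

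Of 21 genes for assembly and rRNA modification, 9 (42.9%) were lower after GO and 12 (57.1%) after GO-Rg3-DOX, with 0 higher in either. Their medians were -0.41 and -1.01. MTERFD1, needed for ribosome assembly, was at mean levels of 17.3 CPM in untreated cells, 10.7 with GO, 13.8 with GO-Rg3 and 2.59 with GO-Rg3-DOX (log2 fold change -2.73 ± 0.16 for the last). NOA1, a GTPase of small subunit assembly, had -1.82 ± 0.11 and the rRNA methyltransferase NSUN4 had -1.47 ± 0.10 after GO-Rg3-DOX. Of 11 translation factors 7 (63.6%) were lower and 0 higher after GO, GFM2, which takes part in ribosome recycling, having the smallest p (-0.83 ± 0.15). After GO-Rg3-DOX 4 (36.4%) were lower, among them C12orf65, a ribosome rescue factor (-1.62 ± 0.11). The elongation factor TUFM, 1 of the 11 (9.09%), rose (0.74 ± 0.10).

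Of 20 mitochondrial aminoacyl-tRNA synthetase genes, which include those of the amidotransferase, 7 (35%) were lower and 1 (5%) higher after GO. After GO-Rg3-DOX 9 (45%) were lower and 3 (15%) higher. MARS2, which charges the methionine tRNA, was at 28.4 CPM in untreated cells, 15.3 with GO, 28.1 with GO-Rg3 and 3.04 with GO-Rg3-DOX (log2 fold change -3.21 ± 0.18 for the last). Of 13 regulators of mitochondrial transcription and biogenesis, 5 (38.5%) were lower and 1 (7.69%) higher after GO. After GO-Rg3-DOX 10 (76.9%) of these regulators were lower and 0 higher. TFB2M, a mitochondrial transcription factor, was lower after GO (-1.33 ± 0.17) and after GO-Rg3-DOX (-1.44 ± 0.17). NRF1, GABPB1, a subunit of GABP, and YY1 had log2 fold changes of -1.85 ± 0.14, -1.56 ± 0.12 and -0.71 ± 0.08 after GO-Rg3-DOX, each past the threshold. In the direct comparison of GO-Rg3 with GO these lists had 1, 1, 2, 5 and 3 genes higher. The order is other ribosomal proteins, assembly, factors, synthetases and regulators. The shares were 14.3, 4.76, 18.2, 25 and 23.1%, against 7.33% of all genes. TARS2, 1 of the 20 synthetase genes (5%), was lower, against 6.25% of all genes.

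Transcripts of the mitochondrial genome were higher after GO. All 13 mitochondrially encoded protein genes and both mitochondrial rRNAs were higher after GO and after GO-Rg3-DOX, with medians of 1.73 and 1.72 for the protein genes. All 15 were lower after GO-Rg3 than after GO. MT-RNR2, the rRNA of the large subunit, had mean levels of 3379 CPM in untreated cells, 15540 with GO, 4322 with GO-Rg3 and 27015 with GO-Rg3-DOX. These transcripts are counted from libraries selected for poly(A). Their part in the member results was examined only by refitting without them, which gave 29 members lower after GO, against 14.8% of genes tested. Of the 82 cytosolic ribosomal protein genes, 28 (34.1%) were lower and 0 higher after GO, with a median of -0.50. Of all genes, 15.4% were lower and 12.1% higher after GO. After GO-Rg3-DOX 4 of the 82 (4.88%) were lower and 21 (25.6%) higher, with a median of 0.23 beside -0.26 for the members. Of all genes, 30.5% were lower and 25.5% higher. The share of rises was thus near that of all genes and the share of falls below it. Nuclear genes of complex I, whose partners are translated on the mitochondrial ribosome, had 12 of 38 (31.6%) lower and 0 higher after GO. After GO-Rg3-DOX 0 of them were lower and 15 (39.5%) higher.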

How the data were processed

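Total RNA of 12 Huh7 samples was sequenced as stranded mRNA libraries. The authors aligned the reads to GRCh37 with the NGI-RNAseq pipeline and used featureCounts to assign them to Ensembl genes. The deposited table holds raw counts, not normalized. The strand setting, the counting of shared reads and the annotation release are not given in the sources used here. Samples were grouped by their labels.

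Genes reaching 10 counts in 3 or more samples were kept and scaled by TMM in edgeR 4.0.16 (R 4.3.3). One model without a replicate block covered the 12 samples, and edgeR's quasi-likelihood test was used with Benjamini-Hochberg adjustment over 17092 genes in each of 4 comparisons. Calls needed an adjusted p below 0.01. The authors used DESeq2, run here in version 1.42.0 as an alternative. Errors beside log2 fold changes are standard errors, and 95% intervals use the degrees of freedom of each test. On simulated counts of 17092 genes for GO against untreated cells, 163 of 200 genes changed by 1.5 on the log2 scale were called, and 4 unchanged genes. The simulation gave all groups the same spread, while the real GO samples differed more from each other than untreated samples did. Its changes were also larger than the largest member change after GO (-1.36), so its rates do not carry over to the members.

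Genes were named by rule: the 5 lowest and 5 highest called members in each comparison, the 3 highest and 3 lowest per length, genes of named ribosome parts and, in other lists, those with small p. The members and lists were chosen with earlier results of these data known. Transcript length and GC content came from a GENCODE annotation lifted to GRCh37, and promoters from RefSeq on GRCh38.p14. Counting limits cover counting error only. As deviations from group means, same-numbered samples correlated by 0.0914 on average and samples with other numbers by -0.0451. The sources used here name no pairing, so the main fit had no replicate block. Whether same-numbered samples shared a batch was not tested, and fits with a block are given below.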

Additional observations from a re-analysis of the deposited data

How the results depend on the processing

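The count of 30 members lower after GO ran from 26 to 50 when 1 sample was left out, the highest value being that without GO replicate 1. Over all genes the share lower was 15.4% in the main fit and 10.5 to 15.7% with a sample left out. The count was 13 at an adjusted p of 0.0001 and 35 with a replicate block, where 18.7% of all genes were lower. Shares of all genes at other adjusted p thresholds are not given here. For GO-Rg3 against untreated cells, where 0 members were called, 7 were lower at an adjusted p of 0.05. The count was 16 with no filter on low counts, against 1.18% of all genes. It was 1 with a replicate block (0.386% of all genes) and 1 in a fit of the 6 samples compared (0.445%). With a GC content offset it was 3 (0.614%), and with that offset and a replicate block 6 (1.08%). By DESeq2 it was 11, against 2.03% of the genes with an adjusted p. After GO-Rg3-DOX, 46 were lower and 2 higher by library totals alone, against 42.7 and 12.6% of all genes. The 6 higher became 13 at an adjusted p of 0.05, 1 at 0.0001 and 13 by DESeq2 (28.7% of the genes with an adjusted p). They became 19 with only the 6 samples compared (30.4% of all genes), 11 with the GC offset (31.1%) and 12 with it and the block (31.7%). With a sample left out 3 to 5 were higher, against 21.5 to 23.2% of all genes. With a replicate block alone, 32 were lower and 9 higher, against 32 and 27% of all genes. The 11 members higher after GO-Rg3 than after GO became 18 and 0 at adjusted p of 0.05 and 0.0001. By DESeq2 they became 17, against 12.4% of the genes with an adjusted p. The count was 1 with only the 6 samples (0.954% of all genes) and 19 with a transcript length offset (10.4%). It was 17 with the GC offset and block (11.4%) and 13 with the block alone (10.6%). With a sample left out it was 3 to 16, against 2.93 to 9.01% of all genes. Mean correlations of same-numbered samples were 0.144, 0.0867 and 0.0439, against -0.0451 for other numbers. Of 12 samples, 10 correlated best with their own number, so a shared effect of the replicate number cannot be set aside.

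The median log2 fold change of the members minus that of all genes was -0.25 in place of -0.33 for GO-Rg3 with a transcript length offset. For GO-Rg3-DOX, -0.20 became -0.39 with no filter, -0.35 with the length offset, -0.067 with the GC offset and -0.064 with it and the block. For GO-Rg3 against GO, 0.16 became 0.21 with the length offset and 0.058 to 0.23 with a sample left out, the lowest being without GO replicate 3. The median of MRPL minus that of MRPS genes, -0.13 after GO, was -0.023 with the GC offset and -0.0012 with it and the block. After GO-Rg3-DOX, -0.10 became -0.24 with the GC offset, -0.23 with it and the block, -0.052 with the length offset, and -0.14 to -0.086 with a sample left out. For GO-Rg3 against GO it was -0.07, and -0.073 to 0.030 with a sample left out. The causes were not tested.

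Of 799 values of 47 results for single members, 16 changed sign, none of them in a called member. Of 527 values of the 31 called results, 58 no longer passed, in 13 results, and 22, in 10 results, were over 1.5 times smaller, while 39 values of the other results passed. After GO, MRPL12 was 0.025 with the block and -0.25 to 0.32 with a sample left out, and MRPL23 was 0.017 by RLE scaling, 0.0068 without mitochondrially encoded genes, 0.027 with at least 10 counts in all samples, 0.0052 with only the 6 samples, 0.018 by DESeq2 and -0.25 to 0.13 with a sample left out. After GO-Rg3-DOX, MRPL22 was 0.056 with the GC offset and 0.027 with it and the block, MRPL24 was -0.078 by library totals, and MRPS36 was 0.46 and 0.44 with the GC offset without and with the block. Depth limited MRPS24 and MRPL12, whose lowest samples had 9 and 14 counts.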
